A study of Mus musculus with 12 samples.

Results

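Complement is a set of plasma and cell-bound proteins that tags particles for uptake and lysis. The 8 genes examined here, C1qa, C1qb, C1qc, C3, Cfb, Cfp, C3ar1 and C5ar1, encode some of its components and receptors. They were chosen by name from the 41709 genes counted in RNA-seq of bone marrow-derived dendritic cells (BMDCs). All 8 passed the filter on low counts in every comparison. BMDCs of 2 mouse genotypes were compared, each either unstimulated or stimulated with 100 ng/mL lipopolysaccharide (LPS, a ligand of toll-like receptor 4) for 24 h per the labels, with 3 libraries in each of the 4 groups. All mice carried the homozygous floxed allele of CD18 (gene symbol Itgb2, the common β2 integrin chain), with loxP sites around exon 3. CD18fl/fl BMDCs lacked Cre recombinase, while CD18CD11c cKO BMDCs (CD18-delta-CD11c in the labels) expressed it under the CD11c promoter, which is active in dendritic cells and in some other myeloid cells. BMDCs were differentiated from bone marrow with GM-CSF for 10 days, and MHCII+ cells were isolated immunomagnetically before RNA extraction. The age of the mice is not given in the sources used here, nor is it stated whether the libraries of a group came from separate animals, so the p-values measure the spread between libraries only.

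C1q, which opens the classical pathway, is assembled from the A, B and C chains encoded by C1qa, C1qb and C1qc. Myeloid cells rather than the liver are its main source, and it tags apoptotic cells and immune complexes for uptake. C3 is the component on which all pathways converge. Factor B, encoded by Cfb, supplies the protease of the alternative C3 convertase, and properdin, encoded by Cfp, stabilizes it. C3a and C5a, small fragments released on activation, are sensed by the G protein-coupled receptors encoded by C3ar1 and C5ar1. CD18 itself forms complement receptors for C3 fragments with CD11b (Itgam) and CD11c (Itgax), so the deleted gene belongs to the same system.

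In GRCm39, the 3 C1q genes form a cluster of 18675 bases on chromosome 4. C1qb (chr4:136607440-136613498), C1qc (chr4:136617115-136620376) and C1qa (chr4:136623228-136626114) follow each other there, and all 3 are read from the minus strand. C3 (chr17:57510970-57535136) and Cfb (chr17:35075350-35081494) lie apart on chromosome 17, Cfp lies on the X chromosome (chrX:20791693-20797794), C3ar1 on chromosome 6 (chr6:122824097-122833120) and C5ar1 on chromosome 7 (chr7:15980668-15993465), all on the minus strand. The sequence before the gene start is shown for 2 members of the cluster, for Cfp, which fell with LPS as they did, and for C3, which did not. C5ar1, which also fell, is not shown. Sequences are those of RefSeq promoter windows (table build GRCm38.p6) that matched GRCm39 exactly at 1 place, and bases inside the gene as the files delimit it were left out. They are written 5' to 3' on the gene's strand, and capitals mark a match to the letters GAGGAA on either strand, the core bound by the myeloid factor PU.1. C1qb covers the 250 bases of chr4:136613512-136613761, C1qc the 99 bases of chr4:136620377-136620475, C3 the 250 bases of chr17:57535137-57535386 and Cfp the 250 bases of chrX:20797795-20798044.
C1qb: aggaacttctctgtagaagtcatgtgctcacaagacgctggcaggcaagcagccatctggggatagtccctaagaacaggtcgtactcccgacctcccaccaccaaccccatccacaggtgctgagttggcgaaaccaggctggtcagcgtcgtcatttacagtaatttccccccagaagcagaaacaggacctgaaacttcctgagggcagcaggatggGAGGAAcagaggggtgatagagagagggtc
C1qc: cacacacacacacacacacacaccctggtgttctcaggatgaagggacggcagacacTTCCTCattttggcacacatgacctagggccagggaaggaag
C3: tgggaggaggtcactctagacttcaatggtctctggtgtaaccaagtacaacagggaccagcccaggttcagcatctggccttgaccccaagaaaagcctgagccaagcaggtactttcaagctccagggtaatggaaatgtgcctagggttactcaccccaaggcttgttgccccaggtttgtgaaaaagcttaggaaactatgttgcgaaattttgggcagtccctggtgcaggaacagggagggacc
Cfp: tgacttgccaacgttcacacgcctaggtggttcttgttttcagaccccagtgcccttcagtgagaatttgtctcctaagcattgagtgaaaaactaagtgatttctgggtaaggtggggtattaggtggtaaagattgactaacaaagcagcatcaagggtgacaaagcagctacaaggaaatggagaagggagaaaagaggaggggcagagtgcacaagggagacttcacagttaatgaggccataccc

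Entries were present for 6 of the 8 genes. C1qa and Cfb had no entry, so their promoters were not searched. For the 6, the whole window of 300 bases (250 before and 50 after the RefSeq start) was searched on both strands. GAGGAA was found in the windows of C1qb (first base at position -30 from the start), C1qc (-193, as its reverse complement, where the RefSeq start lies 151 bases inside the gene of the files) and Cfp (7 and 23 after the start), that is in 3 of 6, and in 28.3% of all 32851 windows of the table. The window of C5ar1, which also fell with LPS, held no GAGGAA, nor did those of C3 and C3ar1. The letters TATAAA were found at -235 in C3ar1 and 15 bases after the start in C3, and in 13.6% of all windows. For NF-kB, GGG followed after 3 bases by TTCC, or after 2 bases by TTNCC, was searched. These overlapping patterns matched at 1 place in C3ar1 and in 8.3% of all windows. No window of the 6 held the core of the interferon-stimulated response element (GAAA repeated after a gap of 2 bases) or the interferon-gamma-activated site (TTCNNNGAA), which occurred in 3.44% and 8.3% of all windows. A match in these letters is a description of the sequence, not of binding.

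The 12 libraries held 29689149 to 34037178 total gene reads each, so that the floor of 3 reads corresponded to 0.0881 to 0.101 CPM before TMM adjustment. All other CPM are read counts scaled to the library size after TMM adjustment over the 12 libraries. The floor covers counting error only. Itgb2, the targeted gene, was at 382, 420.0 and 379 CPM in the unstimulated CD18fl/fl libraries and at 120.4, 163 and 189 CPM in the unstimulated CD18CD11c cKO libraries (replicates 1 to 3). After LPS it was at 167, 171 and 266 CPM against 114, 89.7 and 119 CPM. The genotypes did not overlap in either state, as for 24.8% of all genes unstimulated and 17.6% after LPS (13.1% and 8.1% lower). Itgb2 reads persisted in every CD18CD11c cKO library. Reads from outside the deleted exon count toward Itgb2 as well. Dendritic cell markers summed to between 12827 and 33352 CPM over the 12 libraries, and none of the 12 markers was at or under the floor throughout a group. In unstimulated CD18fl/fl BMDCs the highest means of this list were those of H2-Ab1 (5855 CPM), Cd74 (5046) and H2-Aa (4752). The lowest were those of Clec9a (1.26) and Xcr1 (0.183). Macrophage markers were present as well, with the highest means there for Adgre1 (444 CPM), Csf1r (389) and Cd68 (286). Of the macrophage list, Timd4 was at or under 3 reads in 3 of the 4 groups and Cd163 in both LPS groups.

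Libraries numbered 3 stood apart for several complement genes. C3, C1qa and C1qc were highest in replicate 3 in all 4 groups, and Cfb was lowest in replicate 3 in all 4. For C3, replicate 3 was 2.53 times the mean of replicates 1 and 2 in unstimulated CD18fl/fl BMDCs, 5.58 times after LPS, and 6.68 and 4.02 times, respectively, in CD18CD11c cKO BMDCs. Across all genes, deviations from the group means also set libraries numbered 3 apart from those numbered 1 and 2. Since libraries of the same number correlated in all pairs of groups, results are given both without and with a replicate block, which compares libraries within each number. In replicates 1 and 2 alone, the LPS changes of C1qa, C1qb, C1qc, C5ar1, Cfb and Cfp passed the test in both genotypes, with the directions given below, where 47.5% of all genes passed in CD18fl/fl and 15.9% in CD18CD11c cKO BMDCs.

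**Figure D1:**
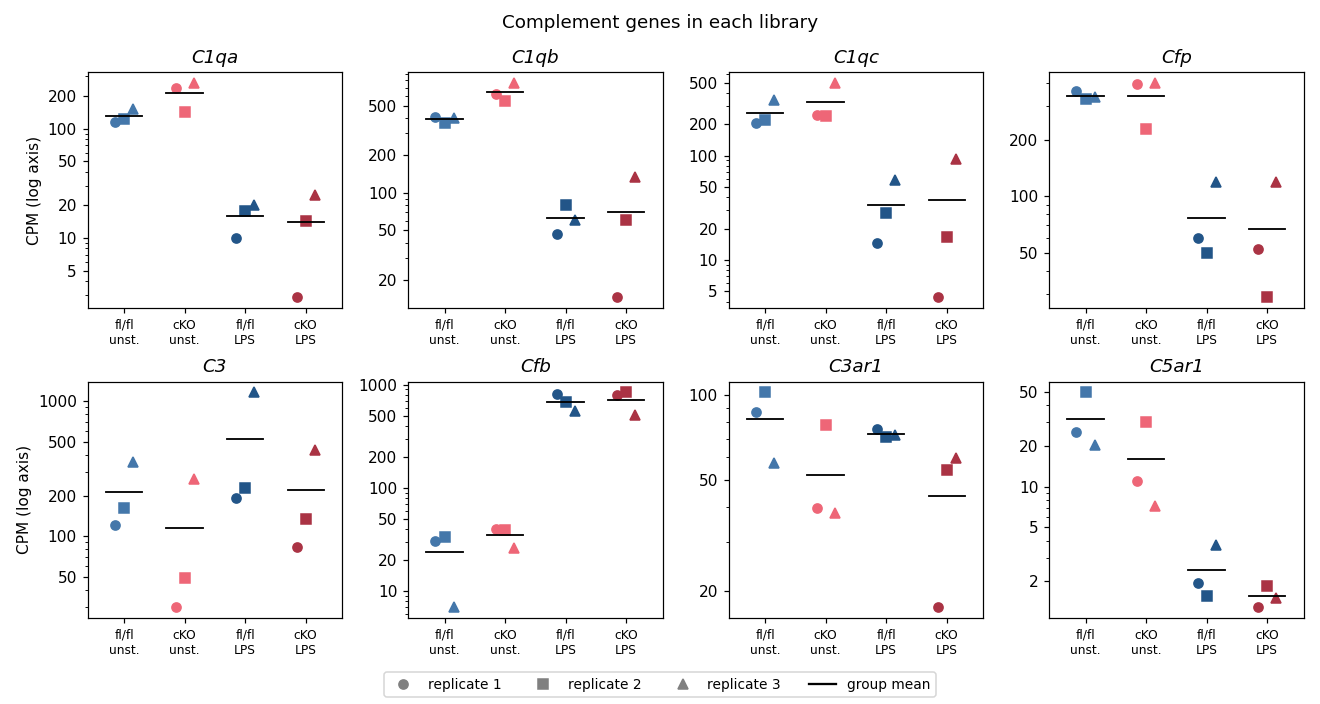
CPM of the 8 complement genes (log axes) in each of the 12 libraries, grouped by genotype and stimulation, with symbols for the replicate number and a line at the group mean. With LPS, C1qa, C1qb, C1qc, Cfp and C5ar1 were lower and Cfb higher in every library than in any unstimulated library of the same genotype, while C3 was highest in replicate 3 of each group.

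Levels were compared between genes as RPKM, the CPM divided by the exon length in kb. In unstimulated CD18fl/fl BMDCs, C1qb was the highest of the 8 at an RPKM of 357 ± 19.4 (SD, n = 3), above 99.1% of the 21914 genes with an exon length. C1qc (RPKM 212 ± 61.9) and Cfp (209 ± 9.93) followed and overlapped each other, and C1qa was next at 125 ± 18.1. C3 (41.3 ± 24.5), C3ar1 (19.1 ± 5.32), C5ar1 (12.3 ± 6.07) and Cfb (8.39 ± 5.15) were lower, and each overlapped the next in this order. Unstimulated BMDCs thus held more transcript of the C1q chains and properdin per exon length than of C3, factor B or the anaphylatoxin receptors. C1qa did not overlap C3 in either genotype. After LPS the order was headed by Cfb in both genotypes, at an RPKM of 242 ± 43.9 in CD18fl/fl and 254 ± 65.4 in CD18CD11c cKO BMDCs. C5ar1 was last at 0.938 ± 0.445 and 0.604 ± 0.107. In LPS-treated CD18fl/fl BMDCs, Cfb overlapped C3 (103 ± 108), whose spread was as large as its mean, whereas in LPS-treated CD18CD11c cKO BMDCs it overlapped no other member. Most reads of Cfb were not unique to it, and a gene that overlaps it, itself with 0 to 73 reads, is described below. On unique reads, divided by the same full exon length, Cfb was at an RPKM of 26.0 ± 2.92 in CD18fl/fl and 26.7 ± 3.91 in CD18CD11c cKO BMDCs after LPS. It was then at rank 5 in both, with C3 (107 ± 113) and C1qb (67.2 ± 58.1) first, respectively. Without LPS Cfb was last on unique reads in both genotypes. The exon length of Cfb that can yield unique reads was not determined, so these values may place it too low and do not settle its rank.

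The first question was how complement genes responded to LPS. In CD18fl/fl BMDCs, Cfb rose and C1qa, C1qb, C1qc, Cfp and C5ar1 fell, while C3 and C3ar1 did not pass the test (edgeR quasi-likelihood test, adjusted p under 0.05). Thus 1 member was higher and 5 were lower, of 8, where 3.89% of all 12744 genes tested passed (2.06% higher and 1.83% lower). The same 6 passed with the replicate block, where 6.33% of genes were called higher and 6.43% lower (12.8% in all). The median log2 fold change of the members was -2.39, against -0.02 over all genes tested. The groups did not overlap for the same 6 genes, 1 higher and 5 lower, as for 13.6% and 15.9% of all genes (29.5% in all). Scaling by library size instead of TMM moved the median over all genes to -0.32 and the calls from 263 higher and 233 lower to 143 and 304, with the 6 genes in the same directions.

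The C1q chains fell by similar amounts. C1qa was at 115, 123 and 151 CPM in the unstimulated CD18fl/fl libraries and at 9.98, 17.6 and 20.05 CPM after LPS. Its log2 fold change was -3.03 ± 0.33 (SE, adjusted p = 0.0138). C1qb went from 404, 364 and 396 to 47.2, 79.9 and 61.2 CPM, a log2 fold change of -2.62 ± 0.28 (adjusted p = 0.0138). For both chains the groups were far apart relative to the spread within them. C1qc went from 207, 217 and 341 to 14.6, 28.0 and 58.8 CPM (-2.91 ± 0.54, adjusted p = 0.0388), so that replicate 3 was highest in both groups. The C chain varied more between the libraries of a group than the A and B chains did.

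The ratio of the B to the A chain changed less than their level. Per exon length, C1qb exceeded C1qa 2.5 to 3.35-fold in unstimulated and 2.92 to 4.52-fold in LPS-treated CD18fl/fl libraries, and 2.51 to 3.72-fold and 4.11 to 5.23-fold, respectively, in CD18CD11c cKO libraries. C1qc over C1qa ranged from 1.52 to 1.95 without and from 1.26 to 2.53 with LPS in CD18fl/fl libraries, and from 0.893 to 1.64 and from 1.02 to 3.25 in CD18CD11c cKO libraries, so that its spread widened with LPS. The summed RPKM of the 3 chains was between 633 and 792 in unstimulated and between 65.1 and 124 in LPS-treated CD18fl/fl libraries. In CD18CD11c cKO libraries the sum was between 838 and 1373 without and between 19.7 and 224 with LPS. The lowest of these sums, from replicate 1, and the highest of the LPS-treated group, from replicate 3, show how far CD18CD11c cKO libraries differed after LPS.

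Of the alternative pathway, Cfb and Cfp moved in opposite directions. Cfb was at 30.5, 33.6 and 7.00 CPM in unstimulated and at 810.1, 679 and 562 CPM in LPS-treated CD18fl/fl libraries. Its log2 fold change was 4.85 ± 0.64 (adjusted p = 0.0162), and the ratio of LPS to unstimulated was 26.5, 20.2 and 80.3 in replicates 1 to 3. The largest ratio came from replicate 3, whose unstimulated library was the lowest. Cfb overlaps the read-through gene Gm20547 on the same strand (chr17:35075388-35101018), and only 6.3% to 15.6% of its reads were unique to it. Counted on unique reads alone, its log2 fold change was 5.11, and Gm20547 itself held between 0 and 73 reads. Cfp, encoding properdin, went from 360.2, 328 and 338 to 59.8, 49.7 and 119 CPM, a log2 fold change of -2.16 ± 0.38 (adjusted p = 0.0348). All LPS-treated libraries thus lay below all unstimulated ones for properdin, with replicate 3 the least reduced.

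C3 differed from Cfb in that its libraries did not separate. It was at 120.5, 161 and 355 CPM in unstimulated and at 191, 227 and 1166 CPM in LPS-treated CD18fl/fl libraries, a log2 fold change of 1.33 ± 0.78 (adjusted p = 0.345). LPS was higher within each of the 3 replicate numbers, by ratios of 1.59, 1.41 and 3.28. With the replicate block the log2 fold change was 0.96 ± 0.30, which still missed the threshold (adjusted p = 0.0879), although it passed in replicates 1 and 2 alone (0.57, adjusted p = 0.0245, where 47.5% of all genes passed) and with the block and an offset for exon length (1.10, adjusted p = 0.0442, where 14.3% did).

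The receptors for C3a and C5a also differed from each other. C5ar1 was at 25.2, 49.4 and 20.3 CPM in unstimulated and at 1.96, 1.56 and 3.71 CPM in LPS-treated CD18fl/fl libraries. It fell by 3.70 ± 0.51 on the log2 scale (adjusted p = 0.0179), the largest decrease among the 8 members in this comparison. C3ar1 was at 86.9, 103 and 57.4 CPM without and at 75.7, 71.2 and 72.1 CPM with LPS, and its log2 fold change of -0.17 ± 0.27 was smaller than its error. The LPS-treated libraries of C3ar1 lay within the range of the unstimulated ones.

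In CD18CD11c cKO BMDCs, the LPS response had the same directions. Cfb rose and C1qa and C5ar1 fell without the block, that is 1 higher and 2 lower of 8 where 3.99% of 12687 genes passed (2.23% higher and 1.76% lower). With the block, Cfb and C3 rose and C1qa, C1qb, C1qc, Cfp and C5ar1 fell, that is 2 higher and 5 lower where 10.2% of genes were called higher and 9.93% lower (20.2% in all). The groups did not overlap for the same 6 genes as in CD18fl/fl BMDCs, as for 14.8% of all genes higher and 13.4% lower (28.1% in all). Library size scaling moved the calls over all genes from 283 higher and 223 lower to 186 and 300. The median log2 fold change of the members was -2.74 without the block, against -0.01 over all genes.

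C1qa was at 234, 141 and 263 CPM in unstimulated and at 2.84, 14.1 and 24.6 CPM in LPS-treated CD18CD11c cKO libraries, a log2 fold change of -3.96 ± 0.76 (adjusted p = 0.0415). C1qb went from 616, 548 and 767 to 14.5, 60.7 and 135 CPM. Its log2 fold change was -3.21 ± 0.75 without the block (adjusted p = 0.0613) and -3.70 ± 0.57 with it (adjusted p = 0.00688). The drop was steepest in replicate 1, where C1qa was 82.6 and C1qb 42.5 times lower after LPS. C1qc went from 242, 239 and 499 to 4.37, 16.6 and 92.6 CPM, with log2 fold changes of -3.11 ± 1.04 (adjusted p = 0.144) and, with the block, -4.02 ± 0.64 (adjusted p = 0.00748). For all 3 chains, replicate 1 was the lowest and replicate 3 the highest of the LPS-treated libraries.

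Cfb was at 40.1, 39.5 and 26.1 CPM in unstimulated and at 799, 846 and 505 CPM in LPS-treated CD18CD11c cKO libraries. Its log2 fold change was 4.29 ± 0.33 (adjusted p = 0.009), with ratios of 19.9, 21.4 and 19.3 in replicates 1 to 3. The 3 ratios were closely alike, unlike those in CD18fl/fl BMDCs. C5ar1 went from 10.9, 29.9 and 7.23 to 1.30, 1.84 and 1.52 CPM (-3.42 ± 0.60, adjusted p = 0.0339). Cfp went from 396, 227 and 402 to 52.0, 28.9 and 119 CPM, by -2.38 ± 0.56 without the block (adjusted p = 0.0626) and -2.60 ± 0.30 with it (adjusted p = 0.00298). Properdin and the C5a receptor were thus lower in each LPS-treated library than in any unstimulated one.

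C3 was at 29.8, 49.1 and 264 CPM in unstimulated and at 82.9, 135 and 438 CPM in LPS-treated CD18CD11c cKO libraries. Its log2 fold change was 0.92 ± 0.94 without the block (adjusted p = 0.632) and 1.17 ± 0.20 with it (adjusted p = 0.0101). The libraries numbered 3 lay above the others in both states, and the ratio of LPS to unstimulated was 2.78, 2.75 and 1.66 within the numbers. C3ar1 was at 39.6, 78.1 and 37.8 CPM without and at 17.5, 54.1 and 59.8 CPM with LPS, and did not pass the test without or with the block (-0.28 ± 0.52 and -0.40 ± 0.36). It was lower after LPS in replicates 1 and 2 and higher in replicate 3.

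**Figure D2:**
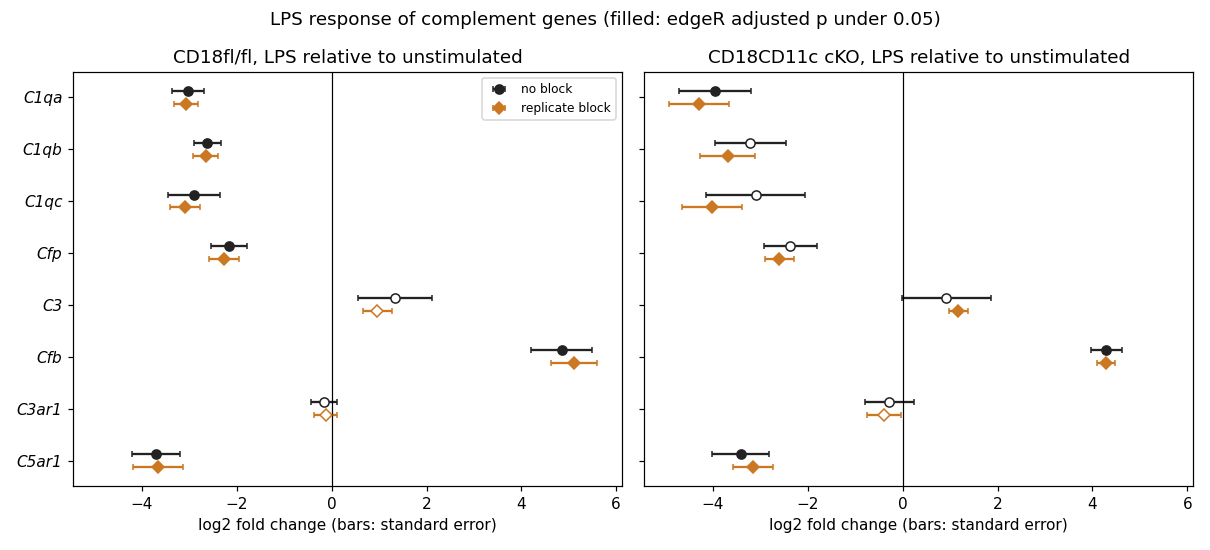
Log2 fold change with its standard error (horizontal axis) of LPS relative to unstimulated BMDCs for the 8 complement genes, in CD18fl/fl (left) and CD18CD11c cKO (right) BMDCs, without and with the replicate block. Filled symbols mark an adjusted p under 0.05, and Cfb (4.85 and 4.29 without the block) lies opposite to the C1q chains, Cfp and C5ar1.

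Calls without the block were lost when single libraries numbered 1 or 2 were left out. In CD18fl/fl BMDCs, leaving out replicate 1 or replicate 2 of either group left 0 of 8 members and 0 of all genes tested past the threshold in edgeR, with adjusted p for C1qa of 0.058 without unstimulated replicate 1 and 0.0682 without LPS replicate 1. Without LPS replicate 3, all 6 genes passed, and the log2 fold change of C3 was -0.014. Without unstimulated replicate 3, Cfb, C1qa, C1qb and C5ar1 passed, whereas C1qc (adjusted p = 0.0624) and Cfp (0.0522) did not. In CD18CD11c cKO BMDCs, the adjusted p of Cfb was 0.0557 without unstimulated replicate 1, 0.0505 without unstimulated replicate 2 and 0.0508 without LPS replicate 2. No member passed in these 3 cases. Cfb alone passed without LPS replicate 1, Cfb and C5ar1 passed without unstimulated replicate 3, and Cfb with the 5 lower genes passed without LPS replicate 3.

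Some markers of macrophages moved with these genes. With LPS and without the block, 0 of the 11 macrophage markers tested were higher and 1 was lower in CD18fl/fl BMDCs, and 0 were higher and 4 lower in CD18CD11c cKO BMDCs. With the block, 1 was higher and 3 were lower in CD18fl/fl BMDCs, and 2 were higher and 4 lower in CD18CD11c cKO BMDCs. Of all genes, 3.89% and 3.99% passed without and 12.8% and 20.2% with the block, so the smaller of these counts are near the background. The summed level of the 12 macrophage markers was not lower with LPS. In CD18fl/fl BMDCs it was between 1209 and 1880 CPM without and between 1720 and 2084 CPM with LPS. In CD18CD11c cKO BMDCs it was between 990 and 1254 CPM without and between 1145 and 1336 CPM with LPS. Neutrophil markers summed to between 13.4 and 1338 CPM in unstimulated and 28.6 and 47.1 CPM in LPS-treated CD18fl/fl libraries, and to between 13.3 and 197 and between 18.02 and 70.5 CPM in CD18CD11c cKO libraries. With the block, 1 of 7 neutrophil markers tested was lower with LPS in CD18fl/fl and 1 of 8 in CD18CD11c cKO BMDCs. B cell and plasma cell markers summed to between 2.03 and 179 CPM without and 2.77 and 33.2 CPM with LPS in CD18fl/fl libraries, and to between 1.01 and 247 and between 1.71 and 55.6 CPM in CD18CD11c cKO libraries. With the block, 3 of 6 were lower with LPS in both genotypes, and without it none was called (median log2 fold changes -2.23 and -2.01). Mast cell and basophil markers summed to between 10.01 and 35.1 CPM without and 0.483 and 15.7 CPM with LPS in CD18fl/fl libraries, where 2 of 2 tested were lower with the block, and to between 8.90 and 121 and between 2.92 and 81.8 CPM in CD18CD11c cKO libraries, where 0 of 4 were called. T and NK cell markers were at most 7.40 CPM in sum. The part of these markers in the results was not tested, and in bulk RNA fewer cells of a type and less RNA per cell cannot be told apart.

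The second question was whether the genotypes differed. Without the block, 0 of 8 members passed the test in either state, as did 0 of 12876 and 0 of 12441 genes (0% of all genes), although an unadjusted p under 0.05 was reached by 1395 genes that were higher and 764 that were lower without LPS, and by 770 and 442 with it. DESeq2 called 491 genes higher and 47 lower without LPS, and 141 and 9 with it. With the block, C1qa and C1qb were higher and C3, C3ar1 and C5ar1 lower in unstimulated CD18CD11c cKO BMDCs, 5 of 8 members where 20.2% of all genes passed (12.1% higher and 8.16% lower). After LPS, C3 alone passed, 1 lower of 8 where 10.1% of genes did (6.98% higher and 3.16% lower). The median log2 fold change of the members with the block was 0.18 in unstimulated and -0.58 in LPS-treated BMDCs, against -0.07 and -0.09 over all genes. Library size scaling moved the median over all genes without the block from -0.05 to -0.44 in unstimulated and from -0.11 to -0.37 in LPS-treated BMDCs, so genotype differences are relative to the TMM scale.

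C3 was lower in CD18CD11c cKO BMDCs within each replicate number and in both states. Unstimulated, CD18fl/fl libraries were 4.04, 3.27 and 1.35 times higher than the CD18CD11c cKO library of the same number, and after LPS 2.31, 1.68 and 2.66 times. The log2 fold change with the block was -1.33 ± 0.30 (adjusted p = 0.0215) in unstimulated and -1.15 ± 0.17 (adjusted p = 0.0107) in LPS-treated BMDCs. Without the block it was -0.82 ± 0.84 (adjusted p = 0.664) and -1.29 ± 0.90 (adjusted p = 0.704), and the groups overlapped. Replicate 3 of the CD18CD11c cKO group exceeded replicates 1 and 2 of the CD18fl/fl group in either state. With the block and an offset for exon length, C3 still passed (-1.11, adjusted p = 0.0343, and -0.96, adjusted p = 0.0147). In replicates 1 and 2 alone, without a block, it passed in unstimulated (-1.77, adjusted p = 0.0218) but not in LPS-treated BMDCs (-0.97, adjusted p = 0.0721). Of all genes, 13.2% and 8% passed with the block and length offset, and 10.6% and 4.22% in replicates 1 and 2 alone, without and with LPS.

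The receptors C5ar1 and C3ar1 were lower in each unstimulated CD18CD11c cKO library than in the CD18fl/fl library of the same number. For C5ar1 the ratios of CD18fl/fl to CD18CD11c cKO were 2.31, 1.65 and 2.80, and the log2 fold change with the block was -1.08 ± 0.19 (adjusted p = 0.00925). For C3ar1 they were 2.20, 1.31 and 1.52, and the log2 fold change with the block was -0.65 ± 0.18 (adjusted p = 0.0407). C5ar1 kept its call with the exon length offset (-1.14, adjusted p = 0.011), and C3ar1 did not (-0.49, adjusted p = 0.109). Without the block neither passed (-0.93 ± 0.60 and -0.61 ± 0.37). After LPS, C3ar1 was lower in all CD18CD11c cKO libraries than in any CD18fl/fl library, the only member whose genotypes did not overlap in this state (as for 9.51% of all genes higher and 8.1% lower, 17.6% in all), but it did not pass the test without or with the block (-0.76 ± 0.45 and -0.93 ± 0.36).

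C1qb was higher in all unstimulated CD18CD11c cKO libraries than in any CD18fl/fl library (11.7% of all genes did not overlap and were higher here, and 13.1% lower, 24.8% in all), by 1.5 to 1.94-fold within the numbers. Its log2 fold change with the block was 0.77 ± 0.15 (adjusted p = 0.0136) and without it 0.79 ± 0.20 (adjusted p = 0.156). C1qa was higher by 2.03, 1.14 and 1.74-fold, with log2 fold changes of 0.73 ± 0.18 with the block (adjusted p = 0.0296) and 0.77 ± 0.27 without it. Both calls were lost when lengths were accounted for. When the trend of each library's counts with exon length was removed, the log2 fold changes with the block were 0.14 ± 0.19 for C1qa and 0.20 ± 0.16 for C1qb (adjusted p = 0.676 and 0.425). C1qa and C1qb have 1040 and 1088 bases of exon, the shortest of the 8 members. C1qc did not pass (0.36 ± 0.15 with the block, adjusted p = 0.12). After LPS, the chains differed between the genotypes by less than 1 SE without the block (C1qa -0.21 ± 0.70, C1qb 0.15 ± 0.70, C1qc 0.16 ± 1.03).

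Cfb and Cfp gave no call between the genotypes. With the block, the log2 fold change of Cfb was 0.87 ± 0.32 in unstimulated (adjusted p = 0.0896) and 0.02 ± 0.14 in LPS-treated BMDCs, and that of Cfp was 0.01 ± 0.18 and -0.35 ± 0.19. The ratio of CD18CD11c cKO to CD18fl/fl for Cfb without LPS was 1.31, 1.18 and 3.73, of which the last came from the low CD18fl/fl library of replicate 3. The difference between the genotypes in the LPS response was tested by the interaction of both factors on all 12 libraries, and 0 of 8 members and 0 of 13752 genes (0%) passed in edgeR without or with the block, with 48 genes higher and 49 lower at an unadjusted p under 0.05, while DESeq2 called 0 genes higher and 1 lower. Among the members, the largest differences without the block were -0.91 ± 0.81 for C1qa and -0.57 ± 0.79 for C1qb, within about 1 SE of 0.

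**Figure D3:**
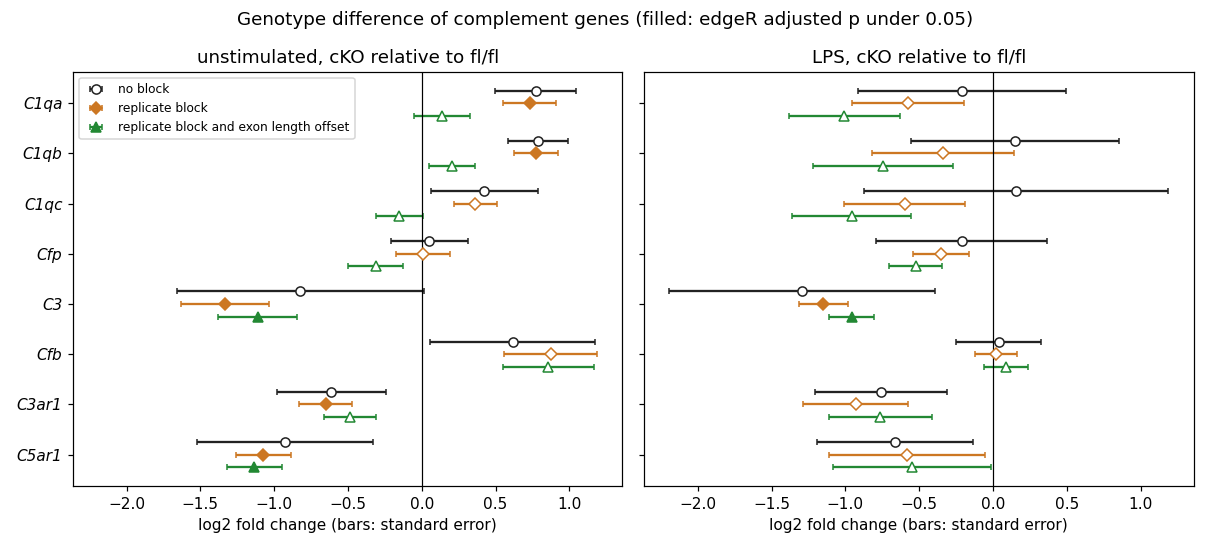
Log2 fold change with its standard error (horizontal axis) of CD18CD11c cKO relative to CD18fl/fl BMDCs for the 8 complement genes, unstimulated (left) and after LPS (right), without the block, with the replicate block, and with the block and an exon length offset. Filled symbols mark an adjusted p under 0.05. C3 is filled in both states with the block (-1.33 and -1.15), and the values of C1qa and C1qb in unstimulated BMDCs lie near 0 with the length offset.

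Other genes of the system were taken from lists by pathway. Of 56 further complement genes, 55 were in the files and between 21 and 24 passed the filter in each comparison. In every library, 15 of the 55 had at most 3 reads, namely C1rb, Mbl1, Mbl2, Colec10, Cfd, C6, C7, C8b, C9, Cfhr2, Cfhr4, C4bp, Cpn1, Cd55b and Vsig4. With LPS, 1 of 22 tested fell without the block in CD18fl/fl BMDCs (Susd4), and 1 rose and 6 fell with it. In CD18CD11c cKO BMDCs, 1 of 22 fell without the block (Cd93), and 1 rose and 4 fell with it. Of all genes, 3.89% and 3.99% passed without the block, close to 1 of 22, and 12.8% and 20.2% with it. The median log2 fold change of the genes tested was -1.04 and -0.54 without the block.

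Susd4, a membrane-bound regulator, was at 3.11 to 14.7 CPM in unstimulated and 0.305 to 0.483 CPM in LPS-treated CD18fl/fl libraries (-4.26 ± 0.76, adjusted p = 0.036 without the block). Cd93, a surface lectin once described as a C1q receptor, fell in CD18fl/fl BMDCs with the block (-2.69 ± 0.22, adjusted p = 0.00458) and in CD18CD11c cKO BMDCs without it (-2.58 ± 0.52, adjusted p = 0.0441). C5ar2, the other C5a receptor, was at 2.26 to 6.07 CPM in unstimulated and at 0 to 0.297 CPM in LPS-treated CD18fl/fl libraries. It fell with the block (adjusted p = 0.0332) in the same direction as C5ar1. The chains of the C3 fragment receptors, Itgam and Itgax, fell with the block in both genotypes. For Itgam the log2 fold changes were -2.94 ± 0.42 in CD18fl/fl and -2.52 ± 0.23 in CD18CD11c cKO BMDCs (adjusted p = 0.0117 and 0.00179), but only 27% to 33.1% of its reads were unique. For Itgax they were -1.89 ± 0.44 and -1.66 ± 0.22 (adjusted p = 0.0433 and 0.00406). Hc, encoding C5, rose with the block by 2.47 ± 0.54 and 2.03 ± 0.57 on the log2 scale (adjusted p = 0.0362 and 0.0479), from a level between 0.173 and 1.86 CPM in the unstimulated libraries. Colec12, a scavenger receptor with a collectin domain, fell with the block in CD18fl/fl BMDCs (adjusted p = 0.0302). It was at 0 to 11.3 CPM in unstimulated and at 0 to 1.97 CPM in LPS-treated CD18fl/fl libraries, so the groups overlapped.

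Between the genotypes, 0 of 24 unstimulated and 0 of 21 LPS-treated genes of these lists passed without the block. With it, Cd59a, Cr1l, C1qbp and Calr were higher and Itgb2, C1ra, Cd93 and Lrp1 lower in unstimulated CD18CD11c cKO BMDCs, that is 4 higher and 4 lower where 20.2% of all genes passed. After LPS, Cr1l and C1qbp were higher and Itgb2, C1ra and Cd93 lower (2 and 3 of 21, where 10.1% of all genes passed). Cr1l and Cd59a restrain complement on the cell's own membrane. Cr1l was at 77.8 to 98.5 CPM in unstimulated CD18fl/fl and at 111 to 182 CPM in CD18CD11c cKO libraries (0.91 ± 0.16 with the block, adjusted p = 0.00988), and after LPS at 83.5 to 88.3 and 121 to 177 CPM (0.73 ± 0.16, adjusted p = 0.0306). The genotypes did not overlap for Cr1l in either state. This was so, and higher, for 11.7% of all genes unstimulated (24.8% in either direction) and 9.51% after LPS (17.6%). Cd59a was at 3.66 to 4.84 and 6.50 to 11.9 CPM, respectively, without LPS (1.14 ± 0.27, adjusted p = 0.0268). C1qbp, a C1q-binding protein found mostly in mitochondria, was higher by 0.90 ± 0.14 and 0.88 ± 0.16 (adjusted p = 0.00727 and 0.0198), and Calr, the C1q-binding chaperone calreticulin, by 0.79 ± 0.15 in unstimulated BMDCs (adjusted p = 0.0133). For Cr1l, Cd59a, C1qbp and Calr, values with the exon length offset, under which C1qa and C1qb lost their calls, were not examined. C1ra, a protease of the C1 complex, was lower, with log2 fold changes of -0.95 ± 0.24 and -1.13 ± 0.20 (adjusted p = 0.0299 and 0.0176). Itgb2 itself was lower, with log2 fold changes of -1.29 ± 0.17 and -0.91 ± 0.16 (adjusted p = 0.00392 and 0.0201), and of -1.26 ± 0.23 and -0.93 ± 0.29 without the block (adjusted p = 0.0887 and 0.428). In the same comparisons with the block, macrophage markers were 1 higher and 3 lower of 11 in unstimulated and 0 higher and 2 lower of 10 in LPS-treated BMDCs. Neutrophil markers had a median log2 fold change of -2.23 without and -1.21 with the block between the unstimulated genotypes. Of 9 tested, 0 and 1 were called lower. Their sum in unstimulated CD18fl/fl libraries had a median of 128 and a maximum of 1338 CPM, so a single library stood far above the others. In unstimulated CD18CD11c cKO libraries the median sum was 161 and the maximum 197 CPM. After LPS the median log2 fold changes of the neutrophil markers were -0.79 and -0.57, with 0 and 1 of 6 called lower. B cell and plasma cell markers had medians of 0.90 and 0.88 unstimulated, with none of 6 called in edgeR. Mast cell and basophil markers had medians of 1.10 and 0.78, with 0 and 1 of 4 called higher. The part of these markers in the differences was not tested.

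**Figure D4:**
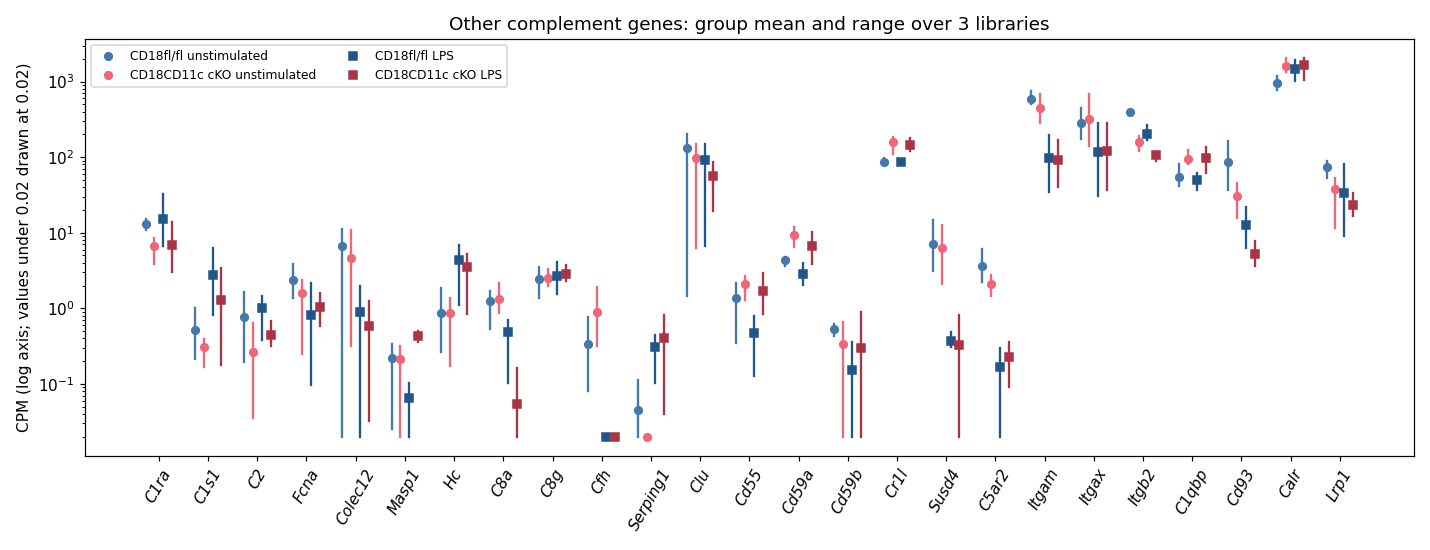
Group mean (symbols) and range over 3 libraries (lines) of CPM on a log axis for the 25 further complement genes that passed the filter in at least 1 comparison, with values under 0.02 CPM drawn at 0.02. The ranges with LPS lie below those without it for Itgam, Cd93, Susd4 and C5ar2 in both genotypes, and the ranges of Cr1l in CD18CD11c cKO BMDCs lie above those in CD18fl/fl BMDCs in both states.

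Finally, the genes most like each member over the 12 libraries (Pearson correlation of log2 CPM, a description, since the libraries fall into groups by LPS) were identified. Cfb was most like Sp100 (r = 0.993), a nuclear body protein, and Ifi205 (r = 0.991), both induced by interferon. C1qa and C1qc shared Asgr2, a lectin subunit (r = 0.974 and 0.983), which was at 405 CPM in unstimulated and 12.3 CPM in LPS-treated CD18fl/fl BMDCs. The other partner of C1qa was Col15a1 (r = 0.979) and that of C1qc was Klk1b11 (r = 0.982). C1qb was most like Tbxas1 (r = 0.967), encoding thromboxane synthase, and Cryl1 (r = 0.964). C5ar1 was most like Mmp8 (r = 0.972), a collagenase of neutrophils, and Rnf150 (r = 0.968), and Cfp was most like Unc119 (r = 0.982) and Hsd17b4 (r = 0.981). For C3 (Uvssa, r = 0.973, and B430306N03Rik, r = 0.971) and C3ar1 (Slc16a10, r = 0.929, and Frmd4a, r = 0.912), the group means of the partners differed less between LPS-treated and unstimulated BMDCs than for the other members.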

How the data were processed

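RNA-seq of 12 BMDC libraries (3 in each of 4 groups, assigned from the labels) was examined. Per the paper's methods, poly(A) libraries of MHCII+ cells were sequenced single-end and mapped to GRCm39 and counted with the default settings of CLC Genomics Workbench. The labels list GRCm38, but gene coordinates in the files matched GRCm39. The authors deposited counts per gene (total gene reads, without normalization), with unique and exon reads beside them. Total gene reads were used.

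Genes passing edgeR's filterByExpr (minimum count 10) were tested with the quasi-likelihood test of edgeR 4.0.16 in R 4.3.3, after TMM scaling, with Benjamini-Hochberg adjustment over all genes and a threshold of 0.05, on the 6 libraries of each comparison or, for the interaction, all 12. SE is the log2 fold change divided by the square root of F. DESeq2 1.42.0, RLE and library size scaling, no filter, unique or exon reads, an exon length offset (lowess, span 0.3), a replicate block and libraries left out were alternatives, with exon reads added after the values were seen. The edgeR fits with TMM scaling, without and with the replicate block, were tested on simulated data. This was done for the unstimulated genotypes, LPS in CD18fl/fl BMDCs and the interaction. The other comparisons and alternatives were not tested in this way.

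Replicate numbers in the labels recur in all 4 groups. Deviations from group means correlated in all 18 same-number pairs (0.229 to 0.716), so the blocked values are given. Numbers 1 and 2 also correlated with each other across groups (0.12 to 0.334) and number 3 negatively with both (-0.571 to -0.235), and 14 of the 18 pairs correlated best with each other, so the correlations mainly set number 3 apart. The sources do not say whether same-numbered cultures ran together.

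The members and lists were chosen with earlier results of these data known. Named were the 8 members, Itgb2, Itgam and Itgax, other complement genes past the threshold (values for at most 6 per comparison, by smallest adjusted p), and the 2 genes most like each member. The values of 1 marker gene are not reported here.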

Additional observations from a re-analysis of the deposited data

How the results depend on the processing

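In LPS-treated against unstimulated CD18fl/fl BMDCs, 105 of 136 alternative log2 fold changes of the members kept direction and side of the threshold, 27 lost the call, 2 gained one and 2 reversed. The counts were 99, 12, 22 and 3 in CD18CD11c cKO BMDCs, 117, 0, 9 and 10 for the genotypes unstimulated and 112, 0, 2 and 22 for the genotypes after LPS. For these reversals and lost calls the cause was not tested. With the replicate block, 2 members were higher and 3 lower between the unstimulated genotypes, and 4 and 4 further complement genes. The block gave 0 higher and 1 lower after LPS (2 and 3 further genes), 1 and 6 further genes with LPS in CD18fl/fl, and 2 higher and 5 lower with LPS in CD18CD11c cKO BMDCs (1 and 4 further genes). The exon length offset with the block gave 2 lower members between the unstimulated genotypes, 1 lower after LPS, 2 higher with LPS in CD18fl/fl, and 2 higher and 5 lower with LPS in CD18CD11c cKO BMDCs. DESeq2 called 1 member higher between the unstimulated genotypes and 5 lower with LPS in CD18CD11c cKO BMDCs, where no filter and the fit on all 12 libraries called 4 lower each. Replicates 1 and 2 alone gave 1 lower member between the unstimulated genotypes, 2 higher with LPS in either genotype and 5 lower in CD18CD11c cKO BMDCs. Leaving out 1 library gave 0 to 1 members higher and 0 to 5 lower with LPS in either genotype, and 0 to 0 between the genotypes. It gave 0 to 1613 genes higher and 0 to 1655 lower with LPS in CD18fl/fl, 0 to 545 and 0 to 488 in CD18CD11c cKO BMDCs, and 0 to 1 higher and 0 to 0 lower between the genotypes. With LPS in CD18fl/fl and CD18CD11c cKO BMDCs, all genes higher and lower numbered 263 and 233, and 283 and 223. These became 969 and 825, and 776 and 756, by DESeq2, 807 and 820, and 1300 and 1260, with the block, 568 and 500, and 513 and 470, on all 12 libraries, 378 and 313, and 436 and 369, without the filter, 3000 and 3140, and 1021 and 1028, in replicates 1 and 2 alone, and 894 and 836, and 1356 and 1208, with the length offset and block. Between the genotypes, where the counts were 0, the block gave 1555 and 1051 unstimulated, and 869 and 393 after LPS. These were 17 and 2, and 43 and 2, on all 12 libraries, 1034 and 349, and 402 and 121, in replicates 1 and 2 alone, and 1006 and 605, and 664 and 282, with the length offset and block. Without the filter, 1 gene was higher after LPS. Reversed values that passed no test were, unstimulated, C1qc at -0.073 (length offset) and -0.15 (with the block), and Cfp at -0.33 (library size), -0.0038 (all 12 libraries), -0.090 (replicates 1 and 2), -0.26 (length offset) and -0.31 (with the block). After LPS they were, for the block, library size, replicates 1 and 2, length offset, and length offset with block, C1qb at -0.34, -0.028, -0.79, -0.18 and -0.75, and C1qc at -0.60, -0.056, -1.06, -0.16 and -0.96, while Cfb was at -0.23 by library size. Leaving out 1 library moved the unstimulated difference of C1qc from -0.012 to 0.66 and of Cfp from -0.077 to 0.26, and, without a change of sign, of C3 from -2.35 to -0.26, of C5ar1 from -1.77 to -0.45, of C3ar1 from -1.05 to -0.41 and of Cfb from 0.17 to 0.95. After LPS these ranges were -2.34 to 0.050 for C3, -0.96 to 0.27 for C1qa, -0.79 to 0.62 for C1qb, -1.75 to 0.83 for C1qc, -0.11 to 0.22 for Cfb and -0.97 to 0.26 for Cfp. With LPS, C3 ranged from -0.014 to 1.92 in CD18fl/fl and from -0.17 to 2.46 in CD18CD11c cKO BMDCs, and C3ar1 from -0.37 to 0.020 and from -0.63 to 0.15. Of 32 mean levels, 28 moved by less than 1 SD under library size scaling, where C1qa, C1qb and Cfp in unstimulated CD18fl/fl BMDCs were at 162, 482 and 425 CPM and C5ar1 in LPS-treated CD18CD11c cKO BMDCs at 1.28 CPM, and 27 did so on unique reads. On unique reads C3ar1 was at 76.2 CPM in LPS-treated CD18fl/fl BMDCs, and Cfb at 2.13 and 73.4 CPM in CD18fl/fl and 2.77 and 75.6 CPM in CD18CD11c cKO BMDCs without and with LPS.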
